A study of Mus musculus with 10 samples.

Results

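The genes described here mark neutrophils, monocytes and macrophages, the myeloid cells of the blood and tissues, in RNA from crypts of the mouse distal colon. Of 36 listed genes, 35 were found in both deposited tables among 23364 genes. They were 4 of 5 neutrophil-enriched genes, 13 of 13 monocyte and macrophage genes and 12 of 12 genes shared by phagocytes. The others were 6 of 6 genes grouped here as pan-leukocyte. The listed genes were matched by symbol, except Spi1, which the tables hold under its older symbol Sfpi1, and no values of Ly6g are analysed here. The 10 libraries form 3 groups: 3 from untreated mice (control), 4 from mice treated with dextran sulfate sodium (DSS), which damages and inflames the colon lining, and 3 from mice given azoxymethane, a carcinogen, and then DSS (AOM+DSS), a group the submitters describe as cancer that follows inflammation. The labels name no strain, age, dose or time of sampling, and do not say whether libraries came from separate animals. Shaking in EDTA, which chelates the ions that hold epithelial cells in place, released the crypts, so the RNA described here is that of cells in the crypt fraction. In such bulk RNA, fewer cells of a type and less RNA per cell cannot be told apart.

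Neutrophils are short-lived granulocytes that are made in the marrow and enter inflamed mucosa along chemokine gradients. Macrophages of the colon are replenished by blood monocytes and lie mostly beneath the epithelium, where they take up debris and make complement. Both kinds of cell carry the phagocyte oxidase, which makes superoxide, and Fc receptors, which bind antibody-coated targets and signal through adaptors with an immunoreceptor tyrosine-based activation motif (ITAM). B cells share several of these proteins.

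The preparations were epithelial by their markers: the deposited means of 9 epithelial genes ran from 11270 (Krt18) to 69350 (Krt8) normalized reads in control, and 0 of 9 passed the authors' test in either deposited comparison. Each library's normalized reads, which are whole reads divided by the library's size factor, were recovered from the digits of the printed group means. Letters name the libraries of a group by falling size factor, from a on, and do not correspond to labelled replicates. Size factors ran from 0.944 to 1.04 in control, 0.645 to 1.26 in DSS and 0.905 to 1.35 in AOM+DSS, and recovered genes held 11283534 to 12511375, 4129682 to 8209222 and 11321823 to 16767628 reads. Control library b stood apart from the other control libraries: the 13 macrophage genes summed to 194, 804 and 114 normalized reads in control a to c, and the smooth muscle markers to 577, 1874 and 618. Without control b, the fold change between group means was over 1.5 times larger for 5 of the 6 listed genes called in DSS and for 21 of the 24 called in AOM+DSS, by a factor of up to 3.40 and 4.14. The exceptions were Cxcr2 in both, and in AOM+DSS also Mrc1 and Trem2, which then had no control reads. Most listed genes had more reads in DSS a and b than in DSS c and d. In AOM+DSS a to c the smooth muscle markers summed to 700.5, 476 and 12594, so library c stood apart in these.

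Promoter letters were read for the 27 of 35 listed genes with an entry in the RefSeq promoter table (build GRCm38.p6), in the 250 bases before each start. The letters GAGGAA, the core bound by PU.1, the factor that Spi1 encodes, were searched on both strands. They occurred before 18 of 30 starts (60%) of the listed genes and before 23.3% of all 32851 starts in the table. The longer form GAGGAAGT, which contains GAGGAA, occurred before 3 of 30 starts (10%) and 2.44% of all starts, and TTGCNNAA, a form bound by C/EBP factors, before 3 of 30 (10%) and 9.56%. By gene, with a match at any start, these were 17 of 27 for GAGGAA, 3 of 27 for GAGGAAGT and 2 of 27 for TTGCNNAA. Fcgr3 has overlapping windows that hold the same matches, so these count more than once among starts. A match describes letters and was not tested as a binding site. The first 3 windows below belong to the neutrophil genes that were higher in both deposited comparisons, and the last 3 to macrophage genes that differed between the treatments. Each runs 5′ to 3′ on the gene's strand and ends at the base before the start, with GAGGAA or its reverse complement in capitals.
Csf3r, chr4:126024409-126024658, plus strand: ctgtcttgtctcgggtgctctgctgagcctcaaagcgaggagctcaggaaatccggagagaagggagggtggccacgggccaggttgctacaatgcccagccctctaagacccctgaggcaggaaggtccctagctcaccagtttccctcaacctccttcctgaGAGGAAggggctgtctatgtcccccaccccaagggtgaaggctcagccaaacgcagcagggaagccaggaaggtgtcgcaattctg
Cxcr2, chr1:74153744-74153993, plus strand: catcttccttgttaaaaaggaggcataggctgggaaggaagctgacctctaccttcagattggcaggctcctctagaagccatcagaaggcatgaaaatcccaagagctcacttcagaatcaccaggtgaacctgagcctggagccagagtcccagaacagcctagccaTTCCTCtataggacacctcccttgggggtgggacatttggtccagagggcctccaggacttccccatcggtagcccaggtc
Trem1, chr17:48232489-48232738, plus strand: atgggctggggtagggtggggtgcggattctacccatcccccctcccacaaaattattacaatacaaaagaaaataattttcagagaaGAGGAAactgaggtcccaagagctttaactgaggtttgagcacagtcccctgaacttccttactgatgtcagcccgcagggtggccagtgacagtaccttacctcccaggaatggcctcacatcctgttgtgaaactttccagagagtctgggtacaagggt
C1qb, chr4:136886201-136886450, minus strand: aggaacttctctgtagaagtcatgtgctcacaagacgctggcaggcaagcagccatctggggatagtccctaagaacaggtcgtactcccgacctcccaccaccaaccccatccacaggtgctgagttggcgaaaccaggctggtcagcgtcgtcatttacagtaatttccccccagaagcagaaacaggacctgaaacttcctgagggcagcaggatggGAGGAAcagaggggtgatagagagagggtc
C1qc, chr4:136892915-136893164, minus strand: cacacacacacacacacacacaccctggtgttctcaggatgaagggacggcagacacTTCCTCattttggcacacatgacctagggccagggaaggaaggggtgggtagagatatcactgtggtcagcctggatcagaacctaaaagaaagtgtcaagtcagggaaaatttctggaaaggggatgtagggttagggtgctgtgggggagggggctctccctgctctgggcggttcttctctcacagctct
Trem2, chr17:48346151-48346400, plus strand: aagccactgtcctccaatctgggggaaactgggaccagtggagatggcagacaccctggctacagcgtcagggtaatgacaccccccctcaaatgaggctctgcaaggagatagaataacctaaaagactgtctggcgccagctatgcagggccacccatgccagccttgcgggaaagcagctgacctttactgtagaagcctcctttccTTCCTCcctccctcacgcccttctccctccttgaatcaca
The match began 86 bases before the start in Csf3r, 81 in Cxcr2, 162 in Trem1, 30 in C1qb, 193 in C1qc and 40 in Trem2, so each of these windows held the letters and no position was shared. Trem1 and Trem2 lie on the same chromosome, as do C1qb and C1qc.

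Neutrophil receptors and a pair of oxidase subunits were higher in DSS than in control, and 0 of 13 macrophage genes passed the test there. In AOM+DSS neutrophil and macrophage genes were both higher, 3 of 4 and 11 of 13. By the authors' adjusted p under 0.05 in their deposited table, 6 of 35 genes were higher in DSS than in control and 0 were lower: Csf3r, Cxcr2, Trem1, Ncf1, Ncf4 and Spi1. Over all 18099 genes tested there, 2.61% were higher and 1.78% lower. The corresponding AOM+DSS table of the authors' deposited pair had 24 of 35 higher and 0 lower, where 5.54% of 18334 genes were higher and 3.35% lower. The 24 were 3 of 4 neutrophil genes, 11 of 13 macrophage genes, 9 of 12 shared genes and 1 of 6 pan-leukocyte genes. In DSS these counts were 3, 0, 2 and 1, and the pan-leukocyte gene was Spi1 in both comparisons. At an unadjusted p under 0.05, the authors' deposited table had 3 of 13 macrophage genes higher in DSS. The share of all genes at that unadjusted threshold is not given, here or for the lists further on. Counts at that threshold therefore stand without a background and are not read as results. Median log2 fold changes in the authors' deposited tables were 5.51 in DSS and 6.55 in AOM+DSS for the 3 neutrophil genes with control reads, 0.77 and 2.99 for the macrophage genes, 2.03 and 2.96 for the shared genes, and 2.55 and 2.37 for the pan-leukocyte genes, beside 0.03 and 0.01 over all genes with a mean of at least 10. Both comparisons share the control libraries.

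**Figure D1:**
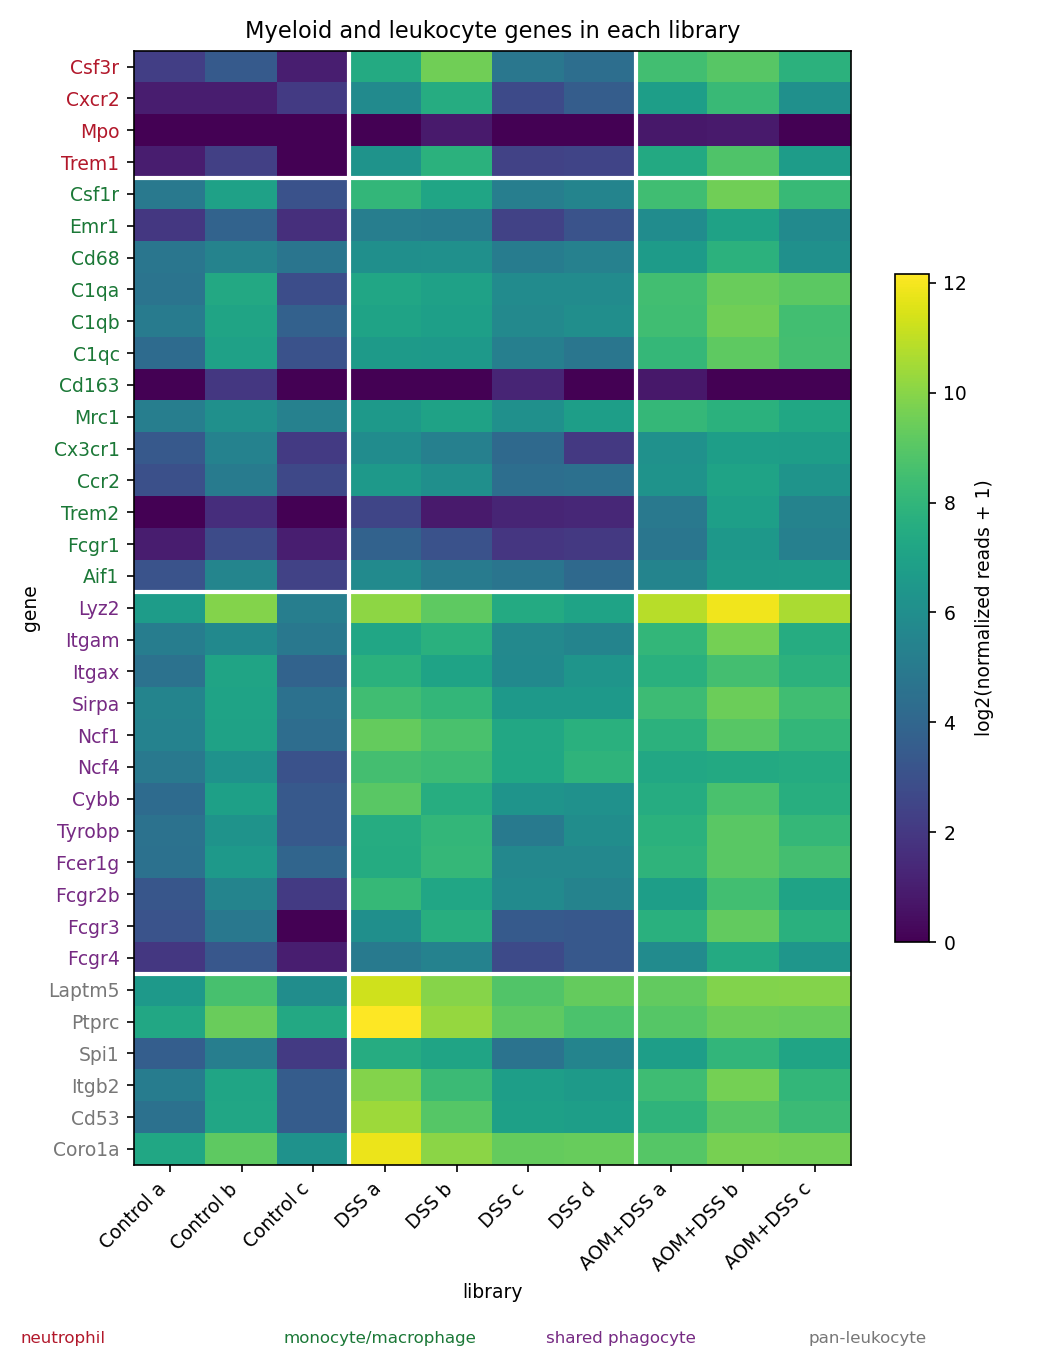
Level of 35 listed genes in each of 10 libraries, as log2(normalized reads + 1), with a row per gene coloured by class and a column per library, and white lines between classes and groups. Control library b is brighter than control a and c in most rows, DSS a and b are brighter than DSS c and d in most rows, and the Mpo and Cd163 rows are dark throughout.

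**Figure D2:**
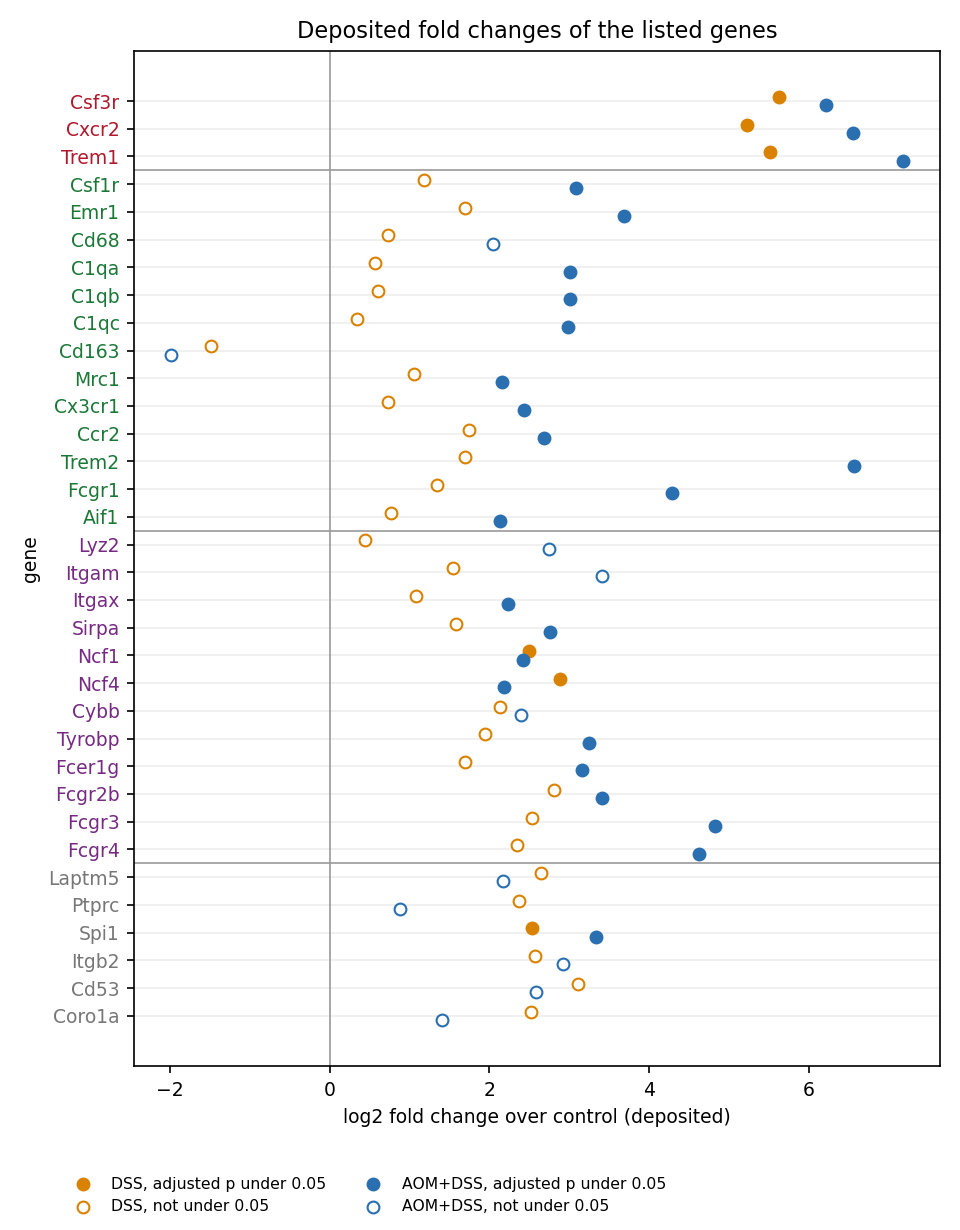
Deposited log2 fold change over control (horizontal axis) of 34 listed genes (Mpo, with no control reads, has none), orange for DSS and blue for AOM+DSS, filled where the authors' adjusted p was under 0.05, with horizontal lines between classes. Csf3r, Cxcr2 and Trem1 lie above 5 in both comparisons, and the macrophage genes from Csf1r to Aif1 have 0 filled DSS points and 11 filled AOM+DSS points.

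Not all libraries of a group moved together. Every DSS library lay above every control library for 7 of 35 genes (Csf3r, Cxcr2, Trem1, Ncf1, Ncf4, Laptm5 and Coro1a), where 9.29% of 15660 genes with recovered reads did so. Every AOM+DSS library lay above every control library for 30 of 35, where 20.6% of 17690 genes did so. The 5 exceptions were Mpo, Cd163, Aif1, Ptprc and Coro1a. Limma on the recovered reads, a second test of the same comparisons, called 2 of 35 higher in DSS (Ncf1 and Ncf4) and 30 of 35 in AOM+DSS. Without control library b it called 9 and 33. It called 0 in DSS when control a, control c, DSS b or DSS d was left out, 1 without DSS a and 4 without DSS c. In AOM+DSS it called 6, 8, 8 and 10 without control a, control c, AOM+DSS a or AOM+DSS b. The share of all genes that limma called is not given for these fits, so the counts only compare fits.

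In DSS the neutrophil receptors had the 3 largest fold changes of the listed genes. Csf3r, the receptor for granulocyte colony-stimulating factor, had 3.86, 9.88 and 1.06 normalized reads in control libraries a to c, 176, 748, 26.9 and 20.2 in DSS libraries a to d and 352, 518 and 229 in AOM+DSS libraries a to c. All treated libraries lay above all control libraries, and within DSS the range from d to b was wider than the gap from control. In the authors' deposited tables its log2 fold change was 5.62 in DSS (adjusted p = 0.0233) and 6.21 in AOM+DSS (adjusted p = 0.00976). Cxcr2, the receptor for chemokines that draw neutrophils, had 0.965, 0.988 and 3.18 in control, 56.1, 184, 5.66 and 10.9 in DSS and 113, 301 and 67.4 in AOM+DSS. DSS b was again the highest DSS library and AOM+DSS b the highest of all. The authors' deposited tables gave it 5.23 (adjusted p = 0.0474) and 6.55 (adjusted p = 0.00841). Trem1, a receptor that amplifies inflammatory signals in neutrophils and monocytes, had 0.965, 3.95 and 0 in control, 74.3, 216, 4.25 and 4.65 in DSS and 165, 445 and 105 in AOM+DSS. DSS c and d lay just above control b, and all AOM+DSS libraries lay above DSS a, c and d. For Trem1 the authors' deposited tables had 5.51 (adjusted p = 0.0351) and 7.18 (adjusted p = 0.00406). Without DSS library b, the ratio of the DSS mean to the control mean fell from 49.2 to 15.04 for Csf3r, from 37.5 to 14.2 for Cxcr2 and from 45.6 to 16.9 for Trem1. Without AOM+DSS b, the AOM+DSS ratio fell from 93.8 to 52.7 for Cxcr2 and from 145.5 to 82.4 for Trem1, and without control c the Cxcr2 ratio rose to 65.6 in DSS and 164 in AOM+DSS. In DSS, limma did not call these 3 genes: its adjusted p was 0.0753 for Csf3r, 0.0902 for Cxcr2 and 0.154 for Trem1.

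Mpo, the myeloperoxidase of primary granules, which neutrophils transcribe while still in the marrow, had 0 reads in control, 1 read in DSS and 2 in AOM+DSS over all libraries of each group. No fold is given for it. Elane, the elastase of the same granules, had 0 in all 10 libraries. It belongs to a list of other neutrophil genes described further on.

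Complement genes of macrophages were higher in AOM+DSS than in either other group. C1qa, C1qb and C1qc encode the chains of complement C1q, which macrophages secrete. C1qa had 25.1, 164 and 6.36 normalized reads in control, 147, 124, 58.1 and 57.4 in DSS and 362, 663 and 551 in AOM+DSS. Control b exceeded every DSS library, and every AOM+DSS library exceeded both other groups. C1qb had 31.9, 135 and 12.7 in control, 134, 114, 52.4 and 63.6 in DSS and 346, 745 and 361 in AOM+DSS, and C1qc had 18.3, 125 and 7.41 in control, 98.0, 94.8, 36.8 and 26.4 in DSS and 271, 562 and 366 in AOM+DSS. All 3 chains were lowest in control c and highest in AOM+DSS b, and each had more reads in control b than in any DSS library. In the authors' deposited tables the AOM+DSS log2 fold changes were 3.01, 3.01 and 2.99 (adjusted p = 2.53e-05, 0.0069 and 0.00136), and in DSS they were 0.57, 0.61 and 0.34 (adjusted p = 0.709, 0.889 and 0.958). Without control b, the ratio of the DSS mean to the control mean was 6.14 for C1qa, 4.09 for C1qb and 4.97 for C1qc, and limma then called C1qa higher in DSS (adjusted p = 0.0463) and neither of the other chains.

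Trem2, a lipid-sensing receptor of macrophages that signals through Tyrobp, had few reads outside AOM+DSS. It had 0, 1.98 and 0 normalized reads in control, 4.74, 0.824, 1.42 and 1.55 in DSS and 29.0, 116 and 42.0 in AOM+DSS. With 2 control reads and 217 AOM+DSS reads, the ratio of pooled reads was 93.9 (95% interval 25.7 to 780.1, counting error only), and with 9 DSS reads it was 3.52 (0.728 to 33.45). The authors' deposited table had an adjusted p of 0.0324 in AOM+DSS. Fcgr1, the high-affinity receptor for immunoglobulin G, had 0.965, 5.93 and 1.06 in control, 13.4, 7.42, 2.83 and 3.10 in DSS and 26.8, 89.3 and 38.7 in AOM+DSS. Without AOM+DSS b, the ratio of means fell from 94.3 to 53.8 for Trem2 and from 19.5 to 12.35 for Fcgr1. For Fcgr1 the DSS libraries overlapped control and the AOM+DSS libraries did not (log2 4.28 and adjusted p = 0.0279 from the authors' deposited table).

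Lineage receptors overlapped between DSS and control and lay above control in AOM+DSS. Csf1r, the receptor that monocytes and macrophages need to survive, had 29.0, 124 and 7.41 in control, 265, 141, 35.4 and 43.4 in DSS and 347, 732 and 292 in AOM+DSS. Emr1, which encodes the F4/80 antigen, had 2.90, 13.8 and 2.12 in control, 36.4, 33.0, 4.25 and 7.76 in DSS and 58.7, 129 and 55.2 in AOM+DSS. DSS a and b lay above control b for both genes, and DSS c and d lay below it. Log2 fold changes in the authors' deposited table for AOM+DSS were 3.09 for Csf1r (adjusted p = 0.0224) and 3.69 for Emr1 (adjusted p = 0.00505). Mrc1, the mannose receptor, had 35.7, 69.1 and 39.2 in control, 92.5, 126, 68.0 and 113 in DSS and 272, 220.0 and 154 in AOM+DSS. It had the smallest adjusted p of the macrophage genes in the authors' deposited table for AOM+DSS (2.40e-06, log2 2.16), and its lowest AOM+DSS library stood above all DSS libraries. Cd163, a scavenger receptor of resident macrophages, had 3 reads in control, 1 in DSS and 1 in AOM+DSS, too few for a direction.

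Receptors that guide monocytes into tissue were also higher in AOM+DSS. Ccr2, carried by inflammatory monocytes, had 6.76, 32.6 and 5.30 in control, 90.9, 65.9, 19.8 and 21.7 in DSS and 75.8, 132 and 78.4 in AOM+DSS. Here DSS a exceeded AOM+DSS a and c, so the treatments overlapped. Cx3cr1, the fractalkine receptor of resident macrophages, had 9.65, 40.5 and 3.18 in control, 60.1, 37.9, 17.0 and 3.10 in DSS and 69.9, 111 and 107 in AOM+DSS. DSS d had about as few as control c, while AOM+DSS lay above both groups. The authors' deposited table gave AOM+DSS log2 fold changes of 2.68 for Ccr2 (adjusted p = 0.00502) and 2.43 for Cx3cr1 (adjusted p = 0.00397). Aif1, an actin-binding protein of macrophages, had 7.72, 45.4 and 4.24 in control, 56.1, 32.1, 25.5 and 17.1 in DSS and 44.6, 103 and 104 in AOM+DSS. AOM+DSS a lay below control b, and the call of the authors' deposited table (log2 2.13, adjusted p = 0.0396) was the one macrophage call whose groups overlapped. Cd68, a lysosomal protein, ran from 25.4 to 42.5 in control, 34.0 to 68.4 in DSS and 67.4 to 222 in AOM+DSS and was not called (adjusted p = 0.0971 for AOM+DSS by the authors' deposited table).

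The cytosolic subunits of the phagocyte oxidase were the shared genes called in DSS. Ncf1 encodes p47phox, which assembles the enzyme on the membrane. It had 41.5, 126 and 19.1 normalized reads in control, 634, 408, 156 and 208 in DSS and 224, 509 and 266 in AOM+DSS. Every treated library lay above control b, and DSS a was the highest of all. Ncf4, which encodes p40phox, had 29.0, 73.1 and 7.41 in control, 366, 319, 149 and 242 in DSS and 154, 166 and 176 in AOM+DSS. It was the listed gene with the smallest adjusted p in DSS in the authors' deposited table (3.11e-07, log2 2.88), and it was also called in AOM+DSS (log2 2.18, adjusted p = 4.86e-04). For Ncf1 the authors' deposited tables had 2.49 (adjusted p = 0.028) and 2.42 (adjusted p = 0.0417). By limma the DSS differences were 2.67 (SE 0.65, adjusted p = 0.0495) for Ncf1 and 3.27 (SE 0.65, adjusted p = 0.0237) for Ncf4. Cybb, the membrane subunit gp91phox, had 18.3, 122 and 9.53 in control, 529, 194, 77.9 and 69.8 in DSS and 184, 402 and 197 in AOM+DSS, and the authors' deposited tables called it in neither (adjusted p = 0.301 and 0.213). Among 7 oxidase partners listed apart from the 36, the authors' deposited tables had 1 higher in each comparison and 0 lower. That gene was Cyba, the p22phox partner of Cybb, with a log2 fold change of 0.79 in DSS (adjusted p = 0.0141) and 0.92 in AOM+DSS (adjusted p = 4.50e-04).

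B cells also express Ncf1, Ncf4, Spi1 and the pan-leukocyte genes, and their markers moved with these genes in DSS. The 9 B and plasma cell markers with reads recovered in every library summed to 227, 1059.7 and 189.6 normalized reads in control, 8998, 3149.9, 2018 and 2151 in DSS and 499, 218 and 1076 in AOM+DSS. All DSS libraries lay above all control libraries in that sum, and AOM+DSS overlapped control. The sum lacks Igj, the joining chain that plasma cells make, whose means in the authors' deposited tables were 749.5 in control, 2175 in DSS and 2410.0 in AOM+DSS (adjusted p = 0.569 and 0.564). Of the 10 markers, only Pax5, a transcription factor of B cells, was higher in DSS by the authors' test in the deposited tables. By that test 0 were higher in AOM+DSS. At an unadjusted p under 0.05, 3 were higher in DSS and 1 in AOM+DSS. Limma called 4 of 9 in DSS and 0 of 10 in AOM+DSS, and the share of all genes that it called is not given. Of the 9 with recovered reads, 5 had every DSS library above every control library, where 9.29% of 15660 genes did so. The part of B cells in the DSS results was not tested.

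Fc receptors were higher in AOM+DSS than in control. Fcgr3, an activating receptor of neutrophils and macrophages, had 7.72, 28.6 and 0 in control, 64.8, 196, 9.91 and 9.31 in DSS and 213, 615 and 208 in AOM+DSS. Fcgr4, an activating receptor found on both cell types, had 2.90, 8.89 and 1.06 in control, 30.8, 41.2, 5.66 and 9.31 in DSS and 57.3, 175 and 84.0 in AOM+DSS. For both genes the AOM+DSS libraries lay above every library of the other groups, and DSS c lay below control b. Fcgr2b, the inhibitory receptor that B cells share, had 8.69, 44.4 and 3.18 in control, 282, 148, 55.2 and 41.9 in DSS and 113, 353 and 133 in AOM+DSS. DSS a and b lay among the AOM+DSS libraries. Fcgr2b and Fcgr3 are similar in sequence, so reads may be split between them. Without AOM+DSS b, the ratio of the AOM+DSS mean to the control mean fell from 28.5 to 17.4 for Fcgr3 and from 10.6 to 6.55 for Fcgr2b. The AOM+DSS log2 fold changes in the authors' deposited table were 4.83 for Fcgr3 (adjusted p = 0.0175), 4.62 for Fcgr4 (adjusted p = 0.00375) and 3.41 for Fcgr2b (adjusted p = 0.0425).

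Both ITAM adaptors were higher in AOM+DSS. Tyrobp, the adaptor of Trem1 and Trem2, had 23.2, 74.1 and 9.53 in control, 185, 267, 31.2 and 62.0 in DSS and 215, 527 and 274 in AOM+DSS. Fcer1g, the common chain of the activating Fc receptors, had 22.2, 91.8 and 14.8 in control, 180.2, 274, 51.0 and 49.6 in DSS and 236, 539 and 376 in AOM+DSS. DSS b was the highest DSS library for both, as for the neutrophil genes, and DSS c and d lay below control b. AOM+DSS log2 fold changes were 3.25 (adjusted p = 0.00791) and 3.16 (adjusted p = 0.00194) from the authors' deposited table. Of 10 kinases and adaptors that act downstream, the authors' deposited tables had 2 higher in DSS and 1 in AOM+DSS, with 0 lower. Lyn, a Src-family kinase of myeloid and B cells, had 667, 832 and 726 in control, 1764, 1786, 1073 and 1264 in DSS and 1955, 1613 and 1214 in AOM+DSS (log2 0.99 and 1.10, adjusted p = 0.00548 and 0.00227 from the authors' deposited tables). Syk, the kinase that docks on phosphorylated ITAMs, was already at a mean of 2901 in control and was called in DSS (log2 0.71, adjusted p = 0.0234 from the authors' deposited table).

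Of 3 other surface proteins of phagocytes, 2 were called in AOM+DSS. Sirpa, an inhibitory receptor that reads CD47, had 44.4, 133 and 22.2 in control, 342, 268, 92.0 and 96.2 in DSS and 325, 691 and 344 in AOM+DSS. Itgax, the CD11c integrin chain of macrophages and dendritic cells, had 23.2, 136 and 13.8 in control, 219.7, 134, 53.8 and 80.7 in DSS and 209, 373 and 229 in AOM+DSS. In both genes DSS c and d lay below control b and all AOM+DSS libraries above it. The authors' deposited table for AOM+DSS had 2.76 for Sirpa (adjusted p = 0.00687) and 2.23 for Itgax (adjusted p = 0.0131). Itgam, the CD11b chain, ran from 28.6 to 53.3 in control, 43.4 to 213 in DSS and 182 to 791 in AOM+DSS without a call in the authors' deposited tables (adjusted p = 0.68 and 0.106).

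Lyz2 is the lysozyme of phagocytes. It had 105, 952 and 36.0 normalized reads in control, 1103, 568, 169.9 and 133 in DSS and 1873, 3855 and 1561 in AOM+DSS. Control b stood close to DSS a, and the lowest AOM+DSS library was above both. The authors' deposited table for AOM+DSS had a log2 fold change of 2.74 with an adjusted p of 0.0519, just outside the threshold. Limma called it in AOM+DSS (3.85, SE 1.02, adjusted p = 0.04). Lyz1, a close copy that Paneth cells express, had deposited means of 105.2 in control, 148 in DSS and 8680 in AOM+DSS by the authors' deposited tables (adjusted p = 0.0353 for AOM+DSS), and how reads were divided between the copies was not tested.

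Of the 6 genes grouped as pan-leukocyte, 5 had their highest level of all libraries in DSS a, and Spi1 had it in AOM+DSS b. Ptprc, the CD45 phosphatase, had 158, 674 and 159.9 in control, 4607, 1232, 576 and 422 in DSS and 499, 686 and 637 in AOM+DSS. Coro1a, an actin regulator of leukocytes, had 149, 560.0 and 73.1 in control, 3629, 1063, 636 and 656 in DSS and 494, 814 and 773 in AOM+DSS. DSS a was the highest of all libraries for both, and AOM+DSS overlapped control b. The authors' deposited tables called neither gene, with adjusted p of 0.616 and 0.988 for Ptprc and 0.384 and 0.75 for Coro1a. Spi1, the gene of PU.1, had 11.6, 35.6 and 3.18 in control, 184, 135, 24.1 and 43.4 in DSS and 114, 259 and 135 in AOM+DSS. DSS c lay below control b, and the other treated libraries lay above it. Spi1 alone of the 6 was called, in both comparisons of the authors' deposited tables (log2 2.53, adjusted p = 0.0464, and log2 3.33, adjusted p = 0.00704). The calls of this class are therefore those of Spi1 and not of the other 5 genes. Laptm5, Itgb2 and Cd53 were called in neither comparison of the authors' deposited tables, and their control, DSS and AOM+DSS libraries spanned 61.4 to 398, 460.2 to 2524 and 603 to 954 for Laptm5, 10.6 to 140.2, 97.7 to 948 and 264 to 797 for Itgb2, and 10.6 to 147, 113 to 1339.8 and 239 to 518 for Cd53.

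Neutrophil and macrophage genes were also compared within each library, as the median log2(normalized reads + 1) of the 4 neutrophil genes minus that of the 13 macrophage genes. The difference was -2.44, -3.79 and -2.13 in control a to c, -0.02, 1.58, -2.16 and -1.47 in DSS a to d, and 0.84, 1.46 and -0.30 in AOM+DSS a to c. Group means were -2.79 ± 0.88 (SD, n = 3), -0.52 ± 1.66 (SD, n = 4) and 0.67 ± 0.89 (SD, n = 3). Genes differ in length, so only differences between libraries are read from this measure. Every AOM+DSS library lay above every control library, and by these medians DSS overlapped both groups. The balance within DSS differed by library: the 4 neutrophil genes were all highest in DSS b, while 10 of 13 macrophage genes were highest in DSS a. In AOM+DSS both classes peaked in library b, with 4 of 4 and 10 of 13 genes. Other summaries placed the treatments closer together. As a mean over members the group values were -2.42 ± 0.88 (SD, n = 3) in control, -0.56 ± 1.34 (SD, n = 4) in DSS and -0.76 ± 0.46 (SD, n = 3) in AOM+DSS, and as a log2 ratio of summed reads they were -5.19 ± 0.52 (SD, n = 3), -2.03 ± 1.81 (SD, n = 4) and -1.91 ± 0.48 (SD, n = 3). By these summaries every DSS library also lay above every control library, with the lowest DSS value at -1.63 against a highest control value of -1.73 by means and at -3.48 against -4.75 by summed reads. So the overlap of DSS with control was seen with medians alone, also over the 3 and 12 genes whose mean reached 10. No order of DSS and AOM+DSS is read from this measure.

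**Figure D3:**
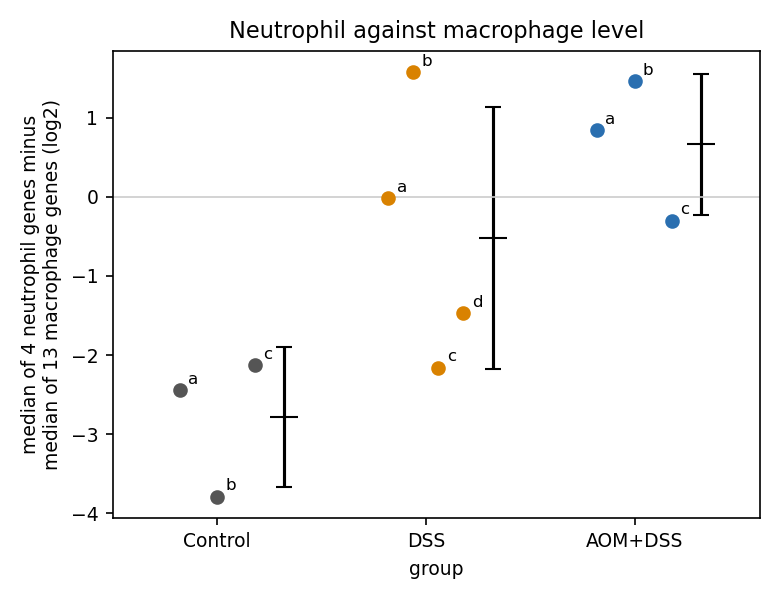
Median log2 level of 4 neutrophil genes minus that of 13 macrophage genes (vertical axis) in each library, with letters for libraries and bars for the group mean ± SD. Control lies between -3.79 and -2.13, DSS between -2.16 and 1.58 and AOM+DSS between -0.30 and 1.46.

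The treatments were compared directly by limma on the recovered reads, since no deposited table does so. Of 35 genes, 4 were higher in AOM+DSS and 0 lower, and all 4 were macrophage genes, where 2.24% of 15938 genes were higher. C1qa differed by 2.52 on the log2(normalized reads + 1) scale (SE 0.39, limma adjusted p = 0.0137). C1qb differed by 2.41 (SE 0.40, limma adjusted p = 0.0185) and C1qc by 2.77 (SE 0.50, limma adjusted p = 0.0256). The largest difference was that of Trem2, 4.23 (SE 0.62, limma adjusted p = 0.0124). Every AOM+DSS library lay above every DSS library for 12 of 35 genes, where 8.75% of 15938 genes did so: 9 of 13 macrophage genes, and Lyz2, Fcgr3 and Fcgr4 among the shared genes. None of the 4 neutrophil genes did so. Limma called 0 of these 4 (adjusted p = 0.511 for Csf3r, 0.434 for Cxcr2 and 0.363 for Trem1), and 1 of 4 had an unadjusted p under 0.05. Yet the median limma difference was 2.01 over the 4 neutrophil genes, near the 2.25 over the 13 macrophage genes. In the lists described further on, it was 2.91 for other neutrophil genes (2 of 17 called) and 0.85 for other macrophage genes (2 of 19 called). So the calls do not show a larger difference for macrophage genes as a class. Ncf4 (-0.62, SE 0.30) and Ptprc (-0.85, SE 0.69) had lower mean levels in AOM+DSS than in DSS without a call (limma adjusted p = 0.413 and 0.655). Without AOM+DSS library b limma called 0 of the 35, and without DSS library a it called 7, Csf1r, Fcgr1 and Lyz2 being added. Over all 12 alternatives the limma adjusted p ranged from 0.00516 to 0.0883 for C1qa, 0.0109 to 0.0977 for C1qb, 0.00602 to 0.14 for C1qc and 0.00974 to 0.0543 for Trem2, and each difference stayed above 2 on the log2 scale.

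**Figure D4:**
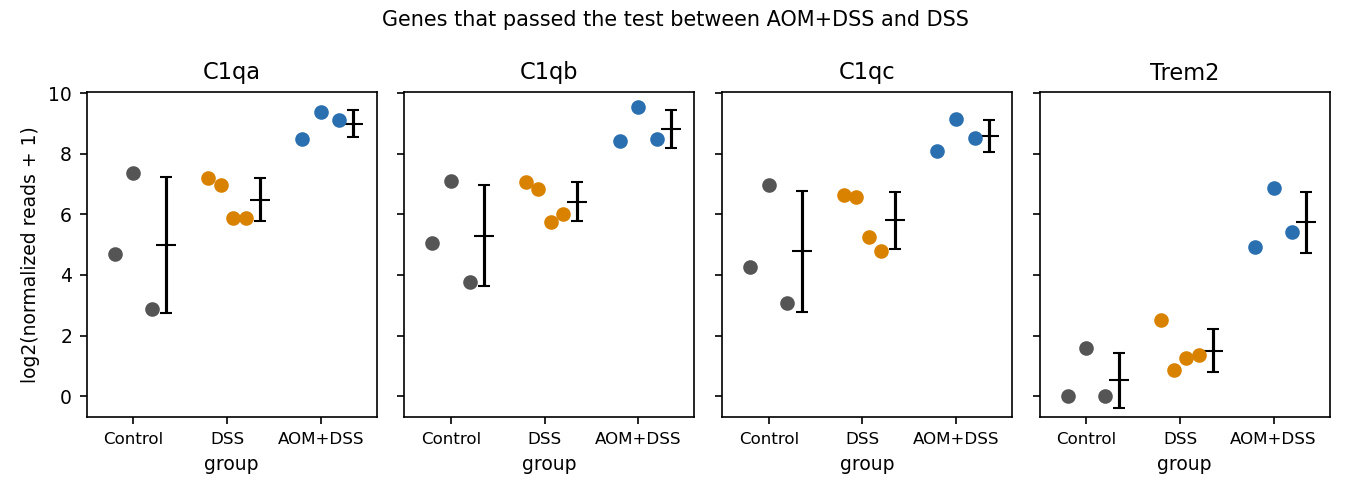
Level of C1qa, C1qb, C1qc and Trem2 as log2(normalized reads + 1) in each library of the 3 groups (points), with the group mean ± SD (bars). All 3 AOM+DSS points lie above all 4 DSS points in each panel, and 1 control point (library b) lies above all DSS points for the C1q genes.

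Set against Ptprc, which marks leukocytes of all kinds, single genes were compared again. Csf3r had 0.662 to 2.44 reads per 100 reads of Ptprc in control, 3.81 to 60.7 in DSS and 35.9 to 75.4 in AOM+DSS. Trem1 had 0 to 0.61, 0.737 to 17.5 and 16.5 to 64.8, and Cxcr2 had 0.147 to 1.99, 0.983 to 14.9 and 10.6 to 43.9. The ratio in DSS lay above control for Csf3r and Trem1 and overlapped control for Cxcr2. C1qa had 3.97 to 24.3, 3.19 to 13.6 and 72.6 to 96.6. So the C1qa ratio overlapped between control and DSS and was higher in every AOM+DSS library. Lyz2 had 22.5 to 141 per 100 Ptprc reads in control, 23.9 to 46.1 in DSS and 245 to 562 in AOM+DSS, and Mrc1 had 10.3 to 24.5, 2.01 to 26.8 and 24.1 to 54.5, which overlapped among all groups. These ratios compare libraries for the same pair of genes and were not tested.

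Genes outside the 36 that are known from the same cells were counted from lists. Of 19 other neutrophil genes tested, 5 were higher in DSS and 12 in AOM+DSS by the authors' deposited tables, and 0 were lower. The median log2 fold change was 4.63 and 6.37 over the 14 genes with control reads. It was 4.15 over 18 genes in DSS and 6.44 over 19 in AOM+DSS with genes at 0 in control taken at their lower bound, against 3 reads over the control group, and 1 gene with 3 or fewer DSS reads left out. S100a9, a chain of the calcium-binding protein calprotectin, had 0, 0.988 and 1.06 in control, 335, 2739.6, 17.0 and 52.7 in DSS and 1379, 4036 and 1025 in AOM+DSS, with adjusted p of 0.00125 and 2.11e-04 from the authors' deposited tables. Padi4, the enzyme that citrullinates histones when neutrophils release chromatin traps, had 2.90, 4.94 and 0 in control, 19.0, 44.5, 5.66 and 4.65 in DSS and 329, 442 and 118 in AOM+DSS and was called in AOM+DSS (adjusted p = 1.56e-04 from the authors' deposited table). Osm, the cytokine oncostatin M, had 0.965, 7.90 and 0 in control, 86.2, 229, 11.3 and 12.4 in DSS and 221, 416 and 133 in AOM+DSS and was called in both (adjusted p = 0.00793 and 3.56e-04 from the authors' deposited tables). Slfn4 had the smallest adjusted p of the list, 4.38e-17 in DSS and 5.97e-18 in AOM+DSS by the authors' deposited tables. Its deposited mean was already 2936 in control, and that of Cd177 was 7173. Both lay far above the control levels of S100a9, Padi4 and Osm, and the counts and medians of this list include both. Which cells their reads came from was not tested. In S100a9 and Osm, as in the 3 neutrophil receptors, DSS b was the highest DSS library.

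Among 20 other macrophage genes the authors' deposited tables had 0 higher in DSS (4 at an unadjusted p under 0.05) and 6 in AOM+DSS, with 0 lower. Apoe, the lipid carrier of macrophages, had 333, 1081 and 267 in control, 1459.9, 1289.5, 906 and 1027 in DSS and 2145, 4998 and 3134 in AOM+DSS (log2 2.61, adjusted p = 0.00124 from the authors' deposited table for AOM+DSS). Ms4a7, a membrane protein of macrophages, had 8.69, 25.7 and 7.41 in control, 30.0, 34.6, 5.66 and 14.0 in DSS and 58.7, 103 and 102 in AOM+DSS (log2 2.65, adjusted p = 0.00128 there, in the authors' deposited table). Pf4, a chemokine of platelets and macrophages, had 29.9, 44.4 and 25.4 in control, 67.2, 102, 59.5 and 60.5 in DSS and 116, 136 and 66.3 in AOM+DSS (log2 1.68, adjusted p = 0.00691 from the authors' deposited table). For Apoe and Ms4a7 every AOM+DSS library lay above every DSS library, as for the C1q genes, and Pf4 overlapped.

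Ligands that recruit or sustain these cells were also measured. Of 14 growth factors and chemokines, 4 were higher in DSS and 8 in AOM+DSS by the authors' deposited tables, and 0 were lower. Ccl7, a ligand of Ccr2, had 0, 5.93 and 2.12 in control, 43.5, 38.7, 65.1 and 76.0 in DSS and 116, 61.2 and 148 in AOM+DSS (adjusted p = 7.11e-07 and 2.33e-10 from the authors' deposited tables). Ccl8, another monocyte chemokine, had 1.93, 15.8 and 2.12 in control, 52.2, 21.4, 36.8 and 43.4 in DSS and 89.2, 72.8 and 65.2 in AOM+DSS (adjusted p = 0.00564 and 1.24e-05 from the authors' deposited tables). Both genes were above control in every treated library, also in DSS c and d, where the receptor Ccr2 lay below control b. Cxcl2, a ligand of Cxcr2, had 2.90, 2.96 and 0 in control, 286, 1915, 36.8 and 43.4 in DSS and 871, 1762 and 369 in AOM+DSS (adjusted p = 0.01 and 0.00353 from the authors' deposited tables). Cxcl5, which also binds Cxcr2, had 25.1, 15.8 and 24.4 in control, 105, 133, 136 and 295 in DSS and 1448, 2094 and 609 in AOM+DSS. It was called in AOM+DSS (log2 5.99, adjusted p = 6.04e-05 from the authors' deposited table). Every DSS library also lay above every control library. There the authors' deposited table made no call (log2 2.94, adjusted p = 0.128) and limma did (2.79, SE 0.39, limma adjusted p = 0.00643). Cxcl2 was highest in DSS b among the DSS libraries, as its receptor was, whereas Cxcl5 was highest in DSS d.

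Markers of other cells varied between libraries of the same group. T and NK cell markers summed to 224 to 967 normalized reads in control, 746 to 5057 in DSS and 802 to 1258 in AOM+DSS, with 1 of 13 (Gzmb) higher in DSS and 2 of 13 (Gzmb and Gzma) in AOM+DSS by the authors' deposited tables. Mast cell and eosinophil markers summed to 31.8 to 113, 94.9 to 915 and 609 to 9713. For 7 of 10, every AOM+DSS library lay above every control library, where 20.6% of 17690 genes did so. The authors' deposited tables called 0 of 10 in either comparison (0 in DSS and 1 in AOM+DSS at an unadjusted p under 0.05). Limma called 0 of 10 in DSS and 6 of 10 higher in AOM+DSS. Among them was Ms4a2, a chain of the mast cell receptor for immunoglobulin E (4.76, SE 0.71, limma adjusted p = 0.00674). The share of all genes that limma called against control is not given, so its counts are not read as results. The eosinophil peroxidase Epx was at 0 in 7 of 10 libraries. Mast cells also express Fcer1g, and the part of these cells in the AOM+DSS results was not tested. The smooth muscle sum of AOM+DSS library c was the highest of all libraries, and 1 of 13 macrophage genes (Aif1) peaked in that library. Within control, the smooth muscle and macrophage sums were both highest in library b. Any link between these sums was not tested.

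**Figure D5:**
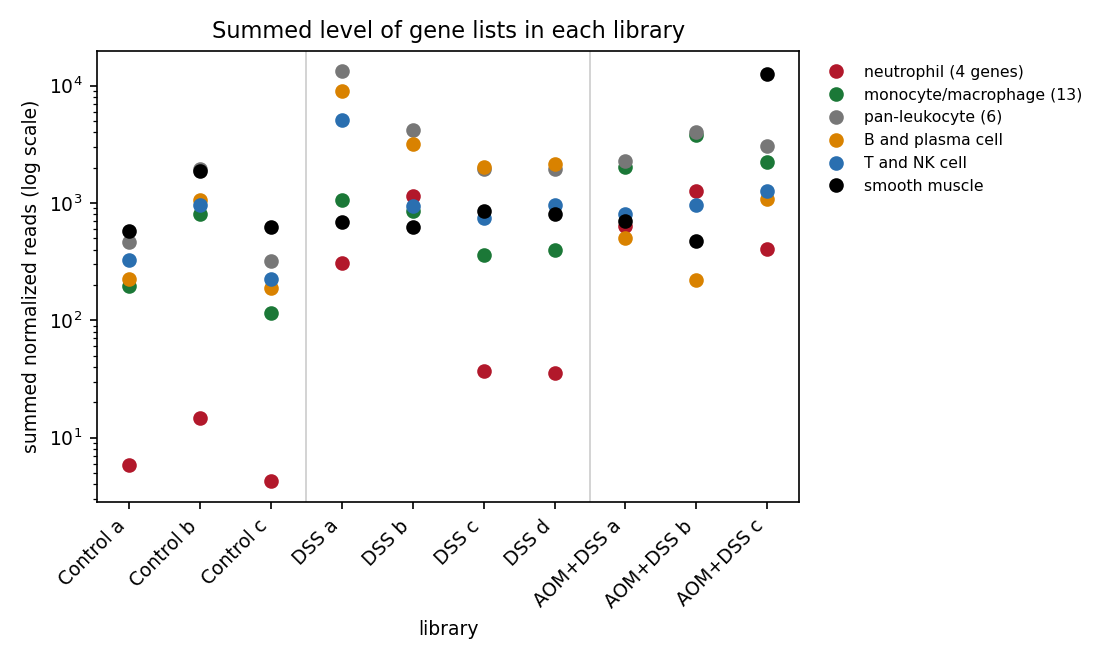
Summed normalized reads (log scale) of 6 gene lists in each of 10 libraries, a colour for each list. Control library b is above control a and c for every list shown, the neutrophil sum of DSS b (1149) is above those of DSS a, c and d, and the smooth muscle sum of AOM+DSS c is 12594.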

How the data were processed

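The 10 libraries (3 control, 4 DSS, 3 AOM+DSS) were made from poly(A) RNA with a TruSeq kit that does not mark the strand. TopHat2 2.0, the build mm9 and DESeq are named in the submitters' processing notes. Which read counter and annotation were used is not given in the sources used here. The authors deposited 2 tables, each a treated group against control. The signal values are group means of reads normalized by size factors, per the file headers. Their fold change is a ratio of these means, treated over control, per the file headers. The log2 values are its logarithm, and the p-values are DESeq's with Benjamini-Hochberg adjustment, per the file headers. A header speaks of 4 AOM+DSS replicates where the labels list 3, and the printed means follow steps of 3 libraries.

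The listed genes and the other lists were chosen with earlier results of these data known. The tables hold no counts per sample, so the authors' adjusted p under 0.05 decided the calls against control. Each printed mean is a sum of whole reads divided by the size factors, so reads per library were recovered where exactly 1 combination gave the printed digits: 97.6% of 23364 genes in control, 89.6% in DSS (with lowest mean not recovered 1383) and 97.8% in AOM+DSS. All 35 genes were recovered in every library. On simulated data with means up to 2200 and the size factors given, 0 genes were recovered wrongly. In control and AOM+DSS the search ran to means of 6000. Values at means above 2200, among them those of Lyz2 and Apoe in AOM+DSS, were not checked in this way. Limma 3.58.1 (R 4.3.3, trend) on log2(normalized reads + 1), Benjamini-Hochberg adjusted over all recovered genes, compared the treatments and served as an alternative for the other comparisons. On simulated data it found 96, 93 and 97 of 100 4-fold changes for DSS against control, AOM+DSS against control and AOM+DSS against DSS, but 13 of 100 2-fold changes in each. The simulated spread was a fixed setting, not fitted to these libraries, and only genes with many reads were changed. So these counts do not give the detection rate for listed genes with a wide spread or few reads. P-values measure the spread between these libraries, which may be technical.

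Values in every library are given for genes called in at least 1 deposited comparison and for the 2 genes of each class with the highest mean. From each pathway list, up to 3 called genes per comparison with the smallest adjusted p are named. Cd68, Itgam, Cybb, Mpo, Cd163, Laptm5, Itgb2 and Cd53 complete the account of the listed genes. Elane, Cd177, Lyz1, Epx, Igj, Pax5, Ms4a2, Gzma and Gzmb were named after their values were seen. Alternatives changed the threshold, the pseudocount (0.5 or 5), a minimum mean of 10, the centring and the libraries used. Left-out pairs of libraries, the other thresholds between the treatments, and the ratios to Ptprc were added after the data were seen.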

Additional observations from a re-analysis of the deposited data

Results flagged for a closer look

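In the group of 4 DSS libraries, 3 of the 35 listed genes had a library far from the others by Dixon's criterion. Chance meets it in about 1 of 20 groups where values are normally distributed, which these counts need not be. Coro1a reached 3629 normalized reads in DSS library a. Mpo had 0.824 in DSS library b and Cd163 had 1.42 in DSS library c, each from 1 read with 0 in the other DSS libraries. A single read among zeros always meets the criterion.

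The effect of AOM+DSS exceeded that of DSS by 2.52 for C1qa, 2.41 for C1qb, 2.77 for C1qc and 4.23 for Trem2 on the log2(normalized reads + 1) scale. Limma's direct comparison of the treatments tested these differences (adjusted p = 0.0137, 0.0185, 0.0256 and 0.0124).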

How the results depend on the processing

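No paired analysis was possible because the recovered libraries carry no replicate numbers. In DSS against control, the authors' threshold of 0.01 left 1 of 35 genes called against 6, while limma called 2, also with a pseudocount of 0.5, a minimum mean of 10 or median centring, and 1 with a pseudocount of 5. Leaving out a library gave 0 to 9 calls. Limma called 10 without control b and DSS a, 3 without control b and DSS b, and 0 without DSS a and b. Trem1, Csf3r and Spi1 did not pass limma in DSS under any of 15 alternatives, and Ncf4 passed in 10. In AOM+DSS against control, leaving out a library gave 6 to 33 calls against 24 in the deposited table and 30 by limma; Csf3r, Cxcr2, Trem1 and Trem2 passed under all 12 alternatives. Between the treatments, limma called 0 at a threshold of 0.01 against 4, leaving out a library gave 0 to 7, and leaving out DSS a and b gave 24. The neutrophil minus macrophage difference between AOM+DSS and control was 3.46 by medians and 1.66 by means over members. Directions turned for genes that were not called. In DSS, Cd163 (deposited log2 -1.48) was 0.42 without control b and DSS a and 0.42 without control b and DSS b, and -0.68 to 0.32 with a library left out; Cx3cr1 was -0.04 to 1.62 with a library left out and -0.51 without DSS a and b; Lyz2 was -0.04 without DSS a and b. In AOM+DSS, Cd163 was -0.73 to 0.27 with a library left out and 0.40 without control b and AOM+DSS b. Between the treatments, leaving out a library gave -0.32 to 0.27 for Cd163, -0.31 to 0.40 for Ncf1, -0.51 to 0.30 for Laptm5 and -0.35 to 0.84 for Cd53, and leaving out DSS a and b gave 0.59 for Laptm5, 0.29 for Ptprc and 0.07 for Coro1a. The cause of these shifts was not tested. Fits that left a group with 2 libraries had fewer degrees of freedom. No share of all genes is given for the fits with libraries left out, so their counts only compare fits. Genes with a few reads per library, such as Mpo and Cd163, give no direction at this depth.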

Other observations

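Dendritic cell markers summed to 12.7 to 189.6 normalized reads in control, 106 to 790.4 in DSS and 120.5 to 189 in AOM+DSS, and 0 of 9 were called in either comparison of the authors' deposited tables. The control sums were 29.0, 189.6 and 12.7 in libraries a to c, so the AOM+DSS sums lay below control b and above control a and c. At an unadjusted p under 0.05, 2 of 9 were higher in DSS and 0 in AOM+DSS, and limma called 0 of 9 in either.

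Ltf, Ngp and Camp encode proteins of the secondary granules of neutrophils, which are made later in their development than the primary granules. Ltf had 20.3, 14.8 and 10.6 normalized reads in control, 219.7, 126, 126 and 163 in DSS and 794, 1408 and 373 in AOM+DSS, and Ngp had 0, 0 and 0 in control, 11.9, 8.24, 0 and 0 in DSS and 68.4, 322 and 1.10 in AOM+DSS. Camp had 0, 0 and 0 in control, 1.58, 0.824, 0 and 0 in DSS and 6.69, 10.8 and 1.10 in AOM+DSS. Unlike Ngp and Camp, Ltf had reads in every library, also in control and in DSS c and d. Which cells the Ltf reads came from was not tested. Elane and Mpo, of the primary granules, had at most 1 read in any library. These genes were chosen after their values were seen.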
